A study of Mus musculus with 10 samples.

Results

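A set of 43 genes of the cell cycle was followed across sorted CD4+ T cells of the mouse spleen: 20 genes of mitosis, 14 of DNA replication and 9 of G1 control. The genes were taken from a list by symbol. All 43 had a row in each of the 10 count tables, which hold 48321 gene symbols, and all 43 were among the 13796 genes left after a filter on low counts.

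The cells came from C57BL/6 mice with a GFP reporter of FoxP3, the transcription factor that marks regulatory T cells (Tregs). WT mice were compared with Satb1 F/F:Thpok-cre mice (KO), in which the gene for the chromatin organizer SATB1 is floxed and the Cre is driven from the locus of ThPOK, a factor switched on once a thymocyte commits to the CD4 lineage. Cells were sorted by GFP and by CD25, the alpha chain of the IL-2 receptor, into WT and KO FoxP3+CD25+ cells (Treg), WT and KO FoxP3-CD25- cells (non-Treg) and KO FoxP3+CD25- cells, with 2 libraries in each of the 5 groups. The labels name no treatment, sex or age, while the study describes young adult mice of both sexes. Libraries of a genotype that carry the same number were taken to come from a single mouse. The titles point to this without stating it, so that each genotype rests on 2 mice and p-values measure the spread between these libraries.

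The libraries held 6094952 to 12410064 reads counted on genes. A gene with no count is therefore below 3 counts, or 0.242 to 0.492 CPM (counts scaled by library size, in the customary unit of RNA-seq). This floor was taken without TMM factors and covers counting error only, while the other CPM given are TMM-scaled. Satb1 itself had 598 and 534 CPM in KO Treg against 379 and 478 CPM in WT Treg, and 841 and 682 CPM in KO non-Treg against 818 and 881 CPM in WT non-Treg libraries. Counts over a whole gene do not show whether the floxed part was lost, so this level is no check of the genotype. Both libraries of WT replicate 1 held 14487 and 16362 counts of Xist and 0 of the Y-linked genes, whereas the other 8 libraries held at most 4 counts of Xist and 3039 to 4750 Y-linked counts. No KO mouse was of that kind, so each comparison that rests on WT cells is also given without WT replicate 1. Marker lists of other cells summed to 58.8 to 121 CPM for erythroid and 12.9 to 43.7 CPM for CD8 and NK cell genes. They summed to 17.7 to 29.6 CPM for myeloid, 2.79 to 21.4 CPM for B cell and 0.109 to 2.30 CPM for plasma cell genes. T cell genes summed to 4125 to 5173 CPM. Only 2 of the 9 erythroid genes passed the filter on low counts, and they carried most of that sum. Which cells these counts came from was not tested.

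A cell that leaves G1 first needs the D-type cyclins, which with their kinases inactivate the retinoblastoma proteins and so free the E2F factors, and the inhibitor p27 (Cdkn1b) opposes this step. E2F factors switch on the replication genes, among them the MCM helicase subunits that are loaded on origins by CDC6 and CDT1, the sliding clamp PCNA and the enzymes that make deoxynucleotides. Later, the MuvB complex with B-MYB and FOXM1 switches on the mitosis genes, many of which carry a CCAAT box and a cell cycle homology region (CHR) before their start. Most T cells of an unchallenged spleen are resting, while a larger part of Tregs is known to divide there.

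Promoter sequences are shown for 6 of the genes named in the comparisons below. RefSeq gave a promoter for 34 of the 43 genes (build GRCm38.p6), and the 250 bases before the start were searched on both strands for the letters TTTGAA (CHR), CCAAT, and TTTCCCGC, TTTGGCGC or TTTCGCGC (E2F). Each stretch below is the 120 bases up to the start on the strand of the gene, with matches in capitals, TTCAAA and ATTGG being the same letters on the other strand. The intervals are chr7:135716380-135716499 for Mki67, chr11:99024190-99024309 for Top2a and chr9:70421555-70421674 for Ccnb2, all on the minus strand. They are chr19:37376262-37376381 for Kif11 and chr4:136172154-136172273 for E2f2 on the plus strand, and chr1:128359706-128359825 for Mcm6 on the minus strand.
Mki67: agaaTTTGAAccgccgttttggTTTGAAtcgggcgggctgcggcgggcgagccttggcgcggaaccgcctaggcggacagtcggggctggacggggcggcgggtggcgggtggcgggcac
Top2a: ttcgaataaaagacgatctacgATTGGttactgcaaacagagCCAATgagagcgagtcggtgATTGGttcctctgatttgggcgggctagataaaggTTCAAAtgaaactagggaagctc
Ccnb2: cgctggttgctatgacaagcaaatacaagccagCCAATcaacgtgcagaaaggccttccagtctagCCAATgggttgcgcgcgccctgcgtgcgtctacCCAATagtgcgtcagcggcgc
Kif11: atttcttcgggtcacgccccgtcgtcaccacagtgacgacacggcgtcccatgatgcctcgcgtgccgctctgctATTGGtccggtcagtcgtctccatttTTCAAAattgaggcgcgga
E2f2: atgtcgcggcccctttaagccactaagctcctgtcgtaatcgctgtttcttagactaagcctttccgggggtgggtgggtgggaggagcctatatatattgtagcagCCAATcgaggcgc
Mcm6: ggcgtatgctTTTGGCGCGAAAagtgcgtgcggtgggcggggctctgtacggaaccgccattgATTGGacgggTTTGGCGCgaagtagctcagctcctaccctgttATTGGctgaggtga

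The CCAAT letters were found in 14 of the 16 mitosis genes with a promoter (87.5%), against 37.5% of all 27025 genes in the table. Ccnb2 had 3 copies, which ended 82, 49 and 16 bases before the start, and Top2a had 3 copies followed by a CHR match 17 bases before the start. The CHR letters were in 6 of the 16 mitosis genes (37.5%), against 18.3% of all genes, and in Mki67 they occurred 2 times. E2F letters were rarer, in 4 of 12 replication genes (33.3%) against 1.78% of all genes, and Mcm6 carried 3 matches, of which 1 pair overlaps. RefSeq lists another start of E2f2 within the gene, with CCAAT letters 48 bases and CHR letters 25 bases before it. The 6 genes shown all have a match, whereas Cdt1, Tk1 and Tyms, which are named below too, have none in the 250 bases. A match is a description of the letters in this window and shows no binding.

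In GRCm38 (GENCODE M21) the genes themselves lie at chr7:135689784-135716361 (Mki67, minus strand), chr11:98992943-99024189 (Top2a, minus), chr4:136172394-136196057 (E2f2, plus), chr1:128331590-128359664 (Mcm6, minus), chr8:122568015-122573554 (Cdt1, plus) and chr11:117815526-117826092 (Tk1, minus).

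Median levels differed by role, and the ranges within the roles were wide. Per kilobase of exon, averaged over the 10 libraries, the mitosis genes had a median of 0.745 CPM per kb (0.154 for Cenpf to 3.89 for Kif20a). The replication genes had a median of 12.4 CPM per kb (0.283 for Cdc6 to 42.1 for Pcna). The G1 control genes had a median of 2.73 CPM per kb (0.530 for Mybl2 to 106 for Ccnd2). Ccnd2 (cyclin D2, 106 CPM per kb) and Cdkn1b (p27, 88.3 CPM per kb) had the highest levels of the set, followed by Pcna (42.1), Mcm4 (27.6), Mcm6 (25.9) and Ccnd3 (22.5 CPM per kb). Among the G1 control genes Mybl2 (B-MYB, 0.530), Foxm1 (0.641) and E2f1 (0.932 CPM per kb) were at the level of mitosis genes, so that the high levels of that role were those of Ccnd2, Cdkn1b and Ccnd3. Some counts are uncertain, because exon bases overlap a gene on the other strand (67.3% of those of Gins2 with Gse1, 29.3% of Kif20a with Cdc23) and the strand setting of the counting is not given, or because 50-base windows are shared with a related gene or pseudogene (23.4% for Ccnb1, 23.3% for Mcm7, 19.3% for Mybl2 and 19.1% for Pcna).

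The summed level of the 20 mitosis genes separated the groups more than the other roles did. It was 266 and 153 CPM in the 2 KO non-Treg libraries, 173 and 90.0 CPM in KO Treg, 159 and 93.3 CPM in WT Treg, 102 and 86.7 CPM in WT non-Treg and 87.3 and 63.1 CPM in KO FoxP3+CD25- cells. In each group the first value is replicate 1. KO FoxP3+CD25- was lowest and KO non-Treg highest within each KO mouse, while the Treg groups overlapped each other and the WT non-Treg group. Across mice the KO non-Treg libraries overlapped both Treg groups, and KO FoxP3+CD25- overlapped WT non-Treg. The summed replication genes ran from 684 to 883 CPM and the G1 control genes from 1499 to 1921 CPM, with most groups overlapping.

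**Figure D1:**
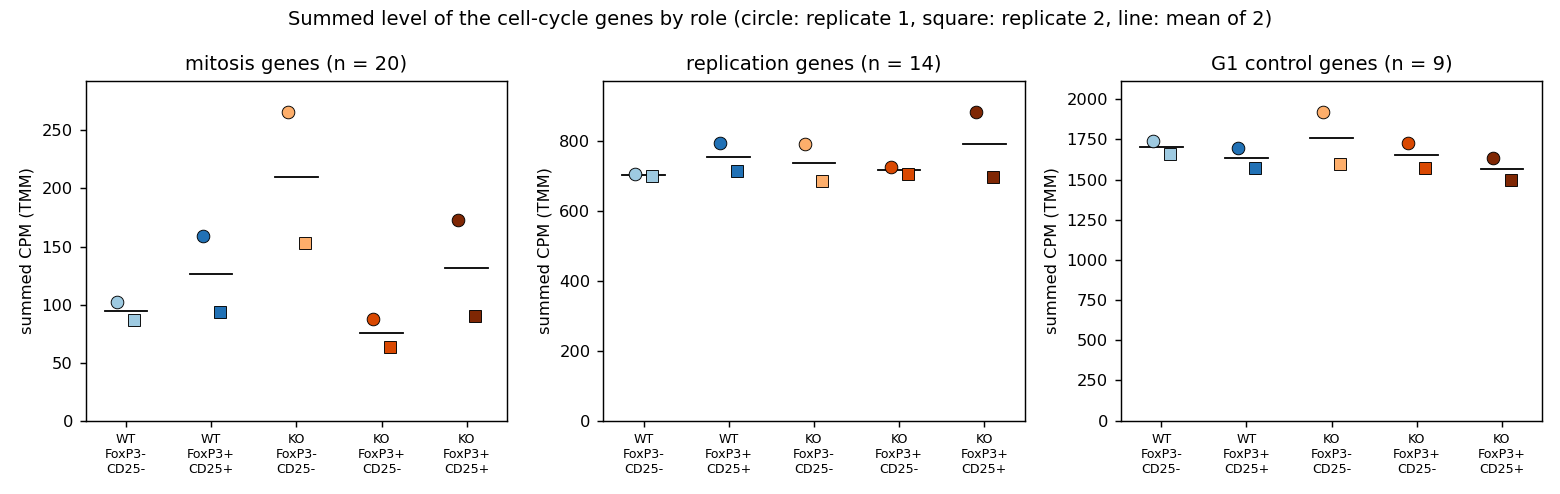
Summed TMM-scaled CPM of the mitosis (n = 20), replication (n = 14) and G1 control (n = 9) genes on the vertical axes, for the 5 sorted groups on the horizontal axes, with a circle for replicate 1, a square for replicate 2 and a line at their mean. The mitosis genes run from 63.1 CPM in KO FoxP3+CD25- replicate 2 to 266 CPM in KO non-Treg replicate 1, and in each role some groups overlap.

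**Figure D2:**
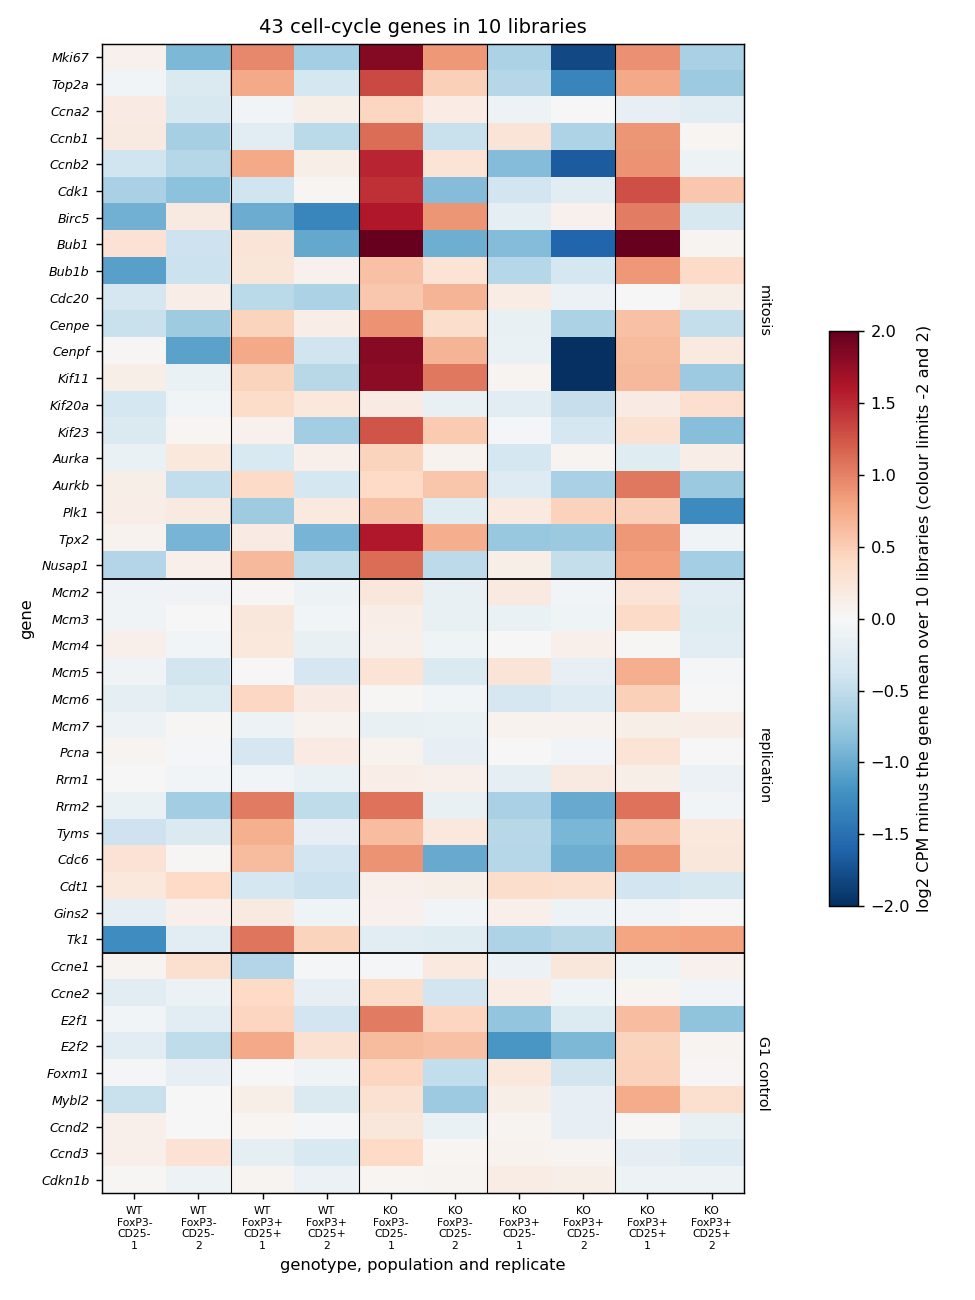
Log2 CPM of the 43 genes (rows, by role) in the 10 libraries (columns, by group and replicate), each minus the mean of its gene, with colour limits of -2 and 2. Mitosis genes are mostly red in the KO FoxP3-CD25- libraries, above all in replicate 1, and blue in KO FoxP3+CD25- replicate 2, while most MCM genes, Ccnd2 and Cdkn1b vary little.

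The first question was how Tregs differ from non-Tregs in WT mice. Of the 43 genes 5 were called at FDR 0.05 (11.6%), beside 10.9% of all genes tested, so that the set was called no more often than the genes at large. Tk1 (thymidine kinase), E2f2 (an activator E2F) and Mcm6 (a helicase subunit) rose in Tregs, and Cdt1 (origin licensing) and Ccnd3 (cyclin D3) fell. The median log2 fold change was 0.06 for the 43 genes and -0.02 for all genes, and it was 0.16 for the mitosis genes, of which 13 of 20 were positive and 0 were called.

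Tk1 had 18.7 and 12.05 CPM in WT Treg and 3.56 and 7.43 CPM in WT non-Treg libraries. The groups did not overlap (log2 fold change 1.51, SE 0.32, FDR 0.010). E2f2 had 58.1 and 42.3 CPM in WT Treg and 29.3 and 23.8 CPM in WT non-Treg libraries, again without overlap (log2 fold change 0.91, SE 0.19, FDR 0.010). Mcm6 had 159 and 134 CPM against 104 and 97.8 CPM (log2 fold change 0.53, SE 0.15, FDR 0.042). Cdt1 went the other way, with 30.1 and 28.6 CPM in WT Treg and 44.6 and 50.98 CPM in WT non-Treg libraries, and fell by 0.70 on the log2 scale (SE 0.12, FDR 0.0032). Ccnd3 had 171 and 158 CPM against 209 and 238 CPM (log2 fold change -0.44, SE 0.13, FDR 0.049). The call of Ccnd3 was lost in 8 of 13 alternatives, among them RLE factors (FDR 0.060), DESeq2 (FDR 0.053) and the compared groups alone (FDR 0.11). The CD8 and NK cell markers were lower in WT Treg too (5 of 5 tested negative, median -1.97, 2 called), and the activated T cell markers higher (6 of 10 called), and their part in these values was not tested.

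Mki67, the gene of the proliferation marker Ki-67, had 46.8 and 14.8 CPM in WT Treg and 25.5 and 12.7 CPM in WT non-Treg libraries. These groups overlapped because replicate 1 was high in both, and Mki67 was not called (log2 fold change 0.67, SE 0.62, FDR 0.61). Without WT Treg replicate 1 its sign turned (-0.39). Within each mouse Mki67 was higher in Treg, by 0.87 in replicate 1 and by 0.21 in replicate 2 (log2). With the mouse as a block, 7 of the 43 genes were called (19.1% of all genes), those 5 together with Mki67 (log2 fold change 0.62, SE 0.18, FDR 0.036) and Cenpe (0.91, SE 0.26, FDR 0.029), a kinesin that carries chromosomes to the spindle equator. With WT replicate 1 left out of that blocked fit, no WT group kept a replicate. The calls of Mki67, Cenpe and Tk1 were then lost, while no fewer of all genes were called. Cdt1 was called under each of the 13 alternatives. In the unblocked fits with libraries left out, a WT group kept no replicate, and the calls among the other genes of the 43 changed. So did the share of all genes called. Within WT replicate 2 alone the log2 ratios of Treg to non-Treg cells were -0.83 for Cdt1 and -0.59 for Ccnd3. They were 0.82 for E2f2, 0.68 for Tk1 and 0.45 for Mcm6.

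The same question was asked in KO mice. None of the 43 genes was called with edgeR between KO Treg and KO non-Treg (0 genes, beside 6.34% of all genes), 0 were called with DESeq2, and 6 had an unadjusted p under 0.05, as had 16% of all genes. The lowest p-values were those of Cdt1, Ccnd3 and Tk1. Cdt1 had 29.4 and 30.8 CPM in KO Treg and 41.5 and 41.6 CPM in KO non-Treg libraries (log2 fold change -0.46, SE 0.12, FDR 0.054). Ccnd3 had 170 and 164 CPM against 257 and 201 CPM (log2 fold change -0.46, SE 0.13, FDR 0.063). Tk1 had 15.3 and 15.5 CPM against 7.44 and 7.38 CPM (log2 fold change 1.05, SE 0.33, FDR 0.10). In these 3 genes neither KO group overlapped the other.

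The mitosis genes lay on the other side of 0 from WT, with a median log2 fold change of -0.51 and 16 of 20 negative, beside a median of -0.0012 over all genes. Mki67 had 45.5 and 15.2 CPM in KO Treg and 85.8 and 43.9 CPM in KO non-Treg libraries (log2 fold change -1.10, SE 0.60, FDR 0.45), and was lower in Treg by 0.91 and 1.51 within the 2 mice. With the mouse as a block 6 of the 43 genes were called, all lower in KO Treg, beside 12% of all genes: Mki67 (log2 fold change -1.18, SE 0.17, FDR 8.8e-04), Kif11 (-1.46), Kif23 (-1.15), Top2a (-0.84), Cdt1 (-0.46) and Ccnd3 (-0.45). Kif11 and Kif23 encode kinesins of the spindle and of cytokinesis, and Top2a the topoisomerase that untangles sister chromatids. With either KO mouse left out of that fit, no KO group kept a replicate, and calls became rarer among the 43 and among all genes alike. Without KO non-Treg replicate 2 and with no block, Ccnd3 was called.

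**Figure D3:**
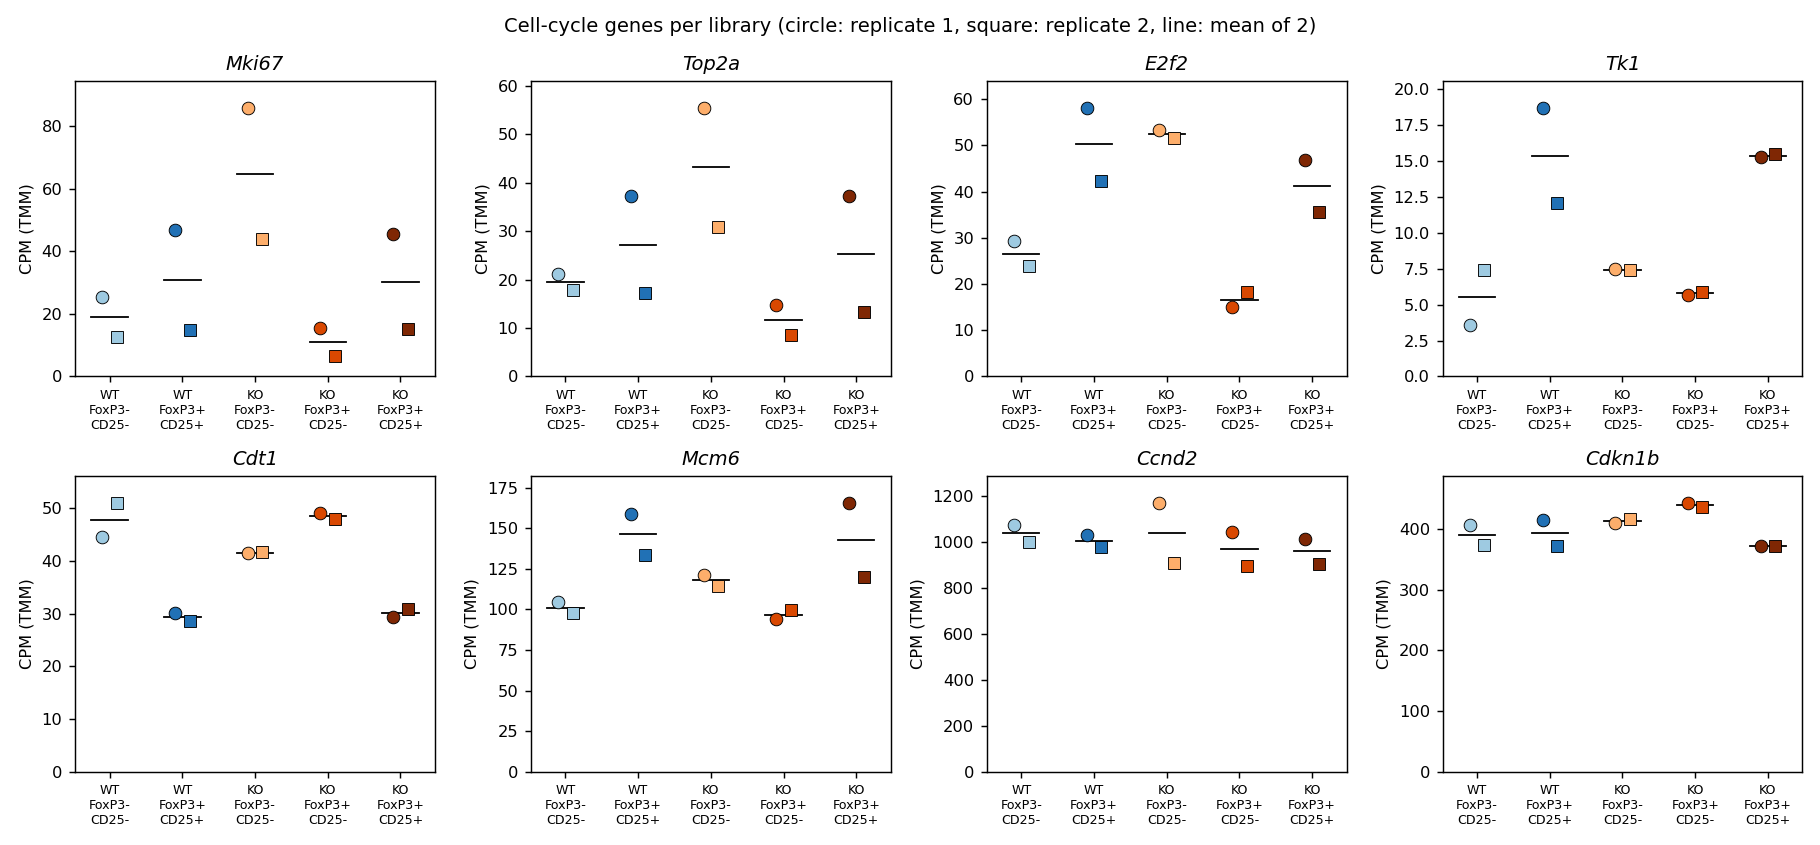
TMM-scaled CPM of 8 genes on the vertical axes for the 5 sorted groups on the horizontal axes, with a circle for replicate 1, a square for replicate 2 and a line at their mean. E2f2 is lowest in both KO FoxP3+CD25- libraries (15.0 and 18.2 CPM), Tk1 is high and Cdt1 low in the CD25+ groups of both genotypes, and the circles of Mki67 lie above the squares in all 5 groups.

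The KO FoxP3+CD25- cells express Foxp3 (361 and 318 CPM, against 17.96 to 38.9 CPM in the non-Treg libraries) without sorting as CD25+. Against KO non-Treg cells 1 of the 43 genes was called, E2f2, beside 1.67% of all genes. E2f2 had 15.0 and 18.2 CPM in KO FoxP3+CD25- and 53.3 and 51.6 CPM in KO non-Treg libraries and fell by 1.65 on the log2 scale (SE 0.20, FDR 0.0029). It was called under each of the 12 alternatives, with log2 fold changes of -1.84 to -1.51. In 3 of the 43 genes (6.98%) both KO FoxP3+CD25- libraries lay below the other 8 libraries, beside 4.7% of all genes: E2f2, Ccnb2 and Tyms (thymidylate synthase). Both KO non-Treg libraries lay above the other 8 in 3 of the 43 genes as well, beside 3.46% of all genes: Cdc20, Kif11 and Kif23.

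Without being called one by one, 32 of the 43 genes were lower, with a median log2 fold change of -0.39 beside 0.01 over all genes. The mitosis genes had a median of -1.12, 19 of 20 were negative, and in 15 of the 20 both KO FoxP3+CD25- libraries lay below both KO non-Treg libraries. Over the 43 genes this held for 21 (48.8%), beside 20.1% of all genes, and 15 of the 43 had an unadjusted p under 0.05, beside 10% of all genes. Mki67 had 15.4 and 6.67 CPM against 85.8 and 43.9 CPM (log2 fold change -2.60, SE 0.67, FDR 0.098). Top2a had 14.7 and 8.64 CPM against 55.4 and 30.8 CPM (log2 fold change -1.91, SE 0.51, FDR 0.11). Ccnb2 (cyclin B2) had 1.13 and 0.547 CPM against 6.95 and 2.77 CPM (log2 fold change -2.55, SE 0.66, FDR 0.099). In all 3 the groups were apart, and each was lower in both KO mice.

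With the mouse as a block 11 of the 43 genes were called, all lower in KO FoxP3+CD25- cells, beside 5.7% of all genes. Next to E2f2 (log2 fold change -1.64, FDR 1.1e-04) these were 8 mitosis genes and the nucleotide synthesis genes Rrm2 (-1.40) and Tyms (-1.20). Mki67 had the lowest FDR of them (log2 fold change -2.59, SE 0.19, FDR 2.5e-05), followed by E2f2 and Top2a (-1.88, SE 0.23, FDR 7.0e-04). The others were Ccnb2 (-2.49), Kif11 (-2.53), Tpx2 (-2.12), a spindle assembly factor, the kinetochore genes Cenpf (-2.66) and Cenpe (-1.05), and Bub1, a spindle checkpoint kinase. Bub1 had 1 and 0 counts in KO FoxP3+CD25- and 20 and 1 counts in KO non-Treg libraries, so no fold change is given. Cenpf and Kif11 were low in KO FoxP3+CD25- cells too, with means of 0.863 CPM (SD 1.07) and 1.94 CPM (SD 2.28). Replicate 1 lay above replicate 2 there by 2.39 (Cenpf) and 2.73 (Kif11) on the log2 scale, so their fold changes are uncertain. With either KO mouse left out of the blocked fit, no KO group kept a replicate, and fewer of the 43 and of all genes were called. The log2 fold change of Mki67 ran from -3.27 to -2.04 over the 12 alternatives. The replication genes had a median log2 fold change of -0.05, and Mcm5 (60.6 and 45.2 CPM against 61.0 and 41.4 CPM) and Pcna (101 and 96.7 CPM against 105 and 90.0 CPM) overlapped between the groups.

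Genes of activated T cells moved with this comparison: 6 of the 10 on a marker list fell at FDR 0.05, and their summed level was 681 and 404 CPM in KO FoxP3+CD25- and 1003 and 802 CPM in KO non-Treg libraries. The CD8 and NK cell markers were lower as well, 5 of 5 tested with a negative log2 fold change (median -2.16) and 1 called, with summed levels of 13.1 and 17.5 CPM in KO FoxP3+CD25- against 29.6 and 41.0 CPM in KO non-Treg libraries. The part of either list in the lower mitosis genes was not tested, and in bulk libraries fewer dividing cells and less RNA per dividing cell cannot be told apart. Naive T cell markers summed to 6509 and 6779 CPM against 6388 and 6196 CPM.

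Against KO Treg, a comparison that uses the same KO FoxP3+CD25- libraries, 3 of the 43 genes were called (7.02% of all genes). E2f2 (15.0 and 18.2 against 46.8 and 35.6 CPM) fell by 1.30 on the log2 scale (SE 0.21, FDR 0.0033). Tk1 (5.66 and 5.91 against 15.3 and 15.5 CPM) fell by 1.40 (SE 0.33, FDR 0.028). Cdt1 (49.1 and 48.0 against 29.4 and 30.8 CPM) rose by 0.69 (SE 0.12, FDR 0.0062). All 3 were apart between the groups, and in Tk1 and Cdt1 the KO FoxP3+CD25- libraries lay beside the non-Treg ones.

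With the mouse as a block 13 of the 43 genes were called against KO Treg, 11 lower and 2 higher, beside 15.1% of all genes. The higher ones were Cdt1 and Cdkn1b (443 and 436 against 373 and 372 CPM, log2 fold change 0.24, SE 0.07, FDR 0.044). The lower ones were E2f2, Tk1, Mki67 (log2 fold change -1.41, FDR 8.0e-04), Top2a, Ccnb2, Bub1, Bub1b, Kif20a, Mcm6 (-0.54), Rrm2 and Tyms. In the unblocked fit Mki67 was not called (log2 fold change -1.50, SE 0.69, FDR 0.27). Mcm6 (94.2 and 99.3 against 166 and 120 CPM) was just outside the threshold (log2 fold change -0.56, FDR 0.050). With a library or a mouse left out, a KO group kept no replicate, the calls among the 43 changed, and fewer of all genes were called. Over the 12 alternatives the log2 fold change ran from -1.67 to -0.98 for E2f2. It ran from -1.46 to -1.38 for Tk1 and from 0.63 to 0.72 for Cdt1. The call was lost in 6 of the 12 for Tk1, in 3 for Cdt1 and in 1 for E2f2. The activated T cell list fell here too, with 7 of 10 genes called and 1176 and 982 CPM in KO Treg, and its part in the result was not tested.

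**Figure D4:**
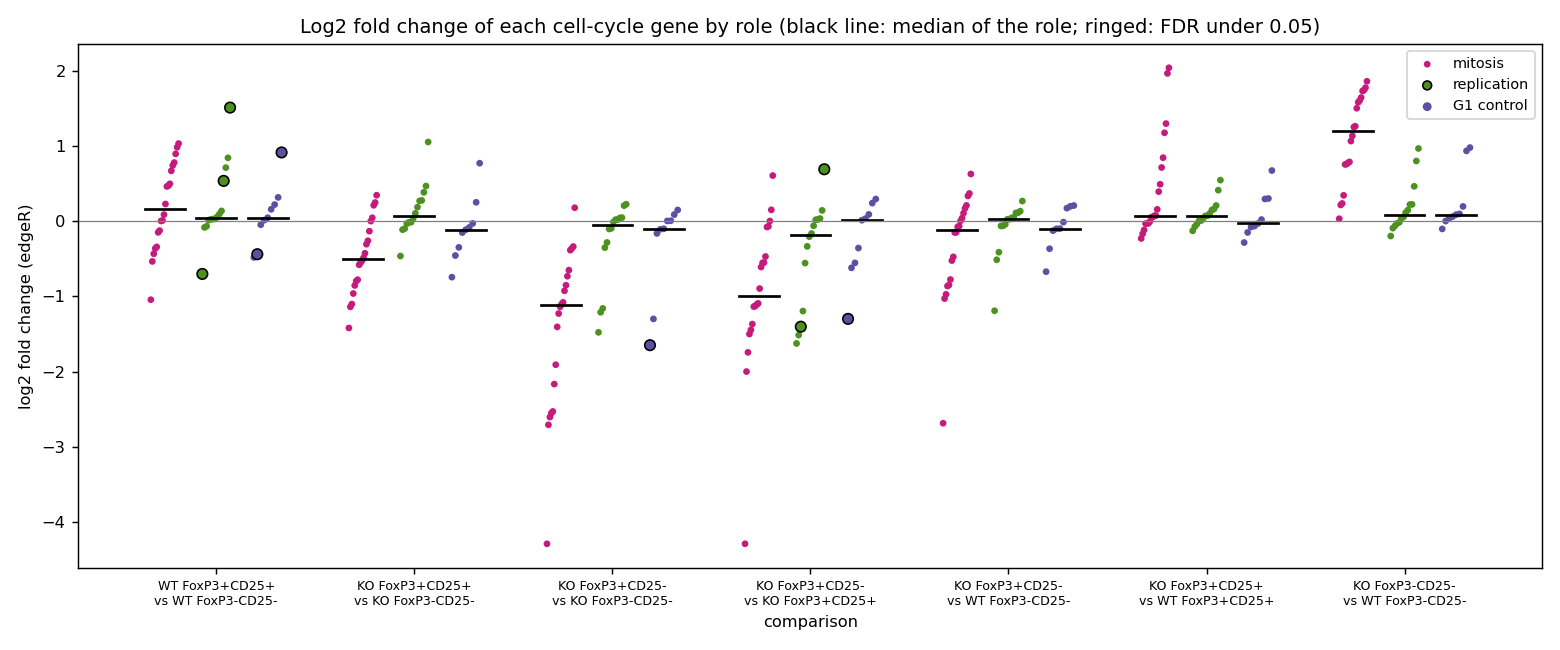
Log2 fold change (edgeR, vertical axis) of each of the 43 genes in 7 comparisons (horizontal axis), coloured by role, with a black line at the median of each role and a black ring around genes called at FDR 0.05. The mitosis medians are -1.12 for KO FoxP3+CD25- against KO FoxP3-CD25- and 1.19 for KO against WT FoxP3-CD25-, and the points near -4.3 are Bub1, which had 1 read in KO FoxP3+CD25- replicate 1 and 0 in replicate 2. Several comparisons share libraries.

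Set against WT non-Treg cells, the KO FoxP3+CD25- cells gave 0 calls among the 43 genes (0.768% of all genes) with edgeR and with DESeq2, and 1 gene at an unadjusted p under 0.05, beside 8.8% of all genes. That gene was E2f2 (15.0 and 18.2 against 29.3 and 23.8 CPM, log2 fold change -0.67, SE 0.21, FDR 0.26), followed by Cdkn1b (443 and 436 against 406 and 374 CPM, log2 fold change 0.17, SE 0.10, FDR 0.75) and Cdc6 (0.808 and 0.547 against 1.66 and 1.34 CPM, log2 fold change -1.19). Mki67 had 15.4 and 6.67 against 25.5 and 12.7 CPM, a log2 fold change of -0.86 with a 95% interval of -2.38 to 0.65. The mitosis genes had a median log2 fold change of -0.11. The count was also 0 without WT replicate 1.

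The effect of the genotype was then compared in each sorted group. In Tregs 0 of the 43 genes were called between KO and WT, beside 0.00725% of all genes, DESeq2 called 0, and 1 had an unadjusted p under 0.05, beside 4.3% of all genes. This gene was Birc5 (survivin, of the chromosomal passenger complex), with 3.36 and 1.18 CPM in KO Treg and 0.640 and 0.472 CPM in WT Treg libraries (log2 fold change 1.96, SE 0.76, FDR 0.9999). Mcm5 (83.8 and 49.5 against 51.2 and 40.0 CPM, log2 fold change 0.54) and Cdc20 (2.90 and 3.14 against 1.92 and 1.77 CPM, log2 fold change 0.71), an activator of the anaphase promoting complex, came next. Mki67 had nearly the same levels, 45.5 and 15.2 CPM in KO and 46.8 and 14.8 CPM in WT Treg, with a log2 fold change of -0.03 and a 95% interval of -1.39 to 1.33, an interval that spans changes of over 2-fold in either direction. Its sign turned with the libraries used: it was 1.02 without WT Treg replicate 1 and 0.57 without KO Treg replicate 2. The median over the mitosis genes was 0.07.

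In non-Tregs again 0 of the 43 genes were called between KO and WT, beside 0.145% of all genes, while 13 had an unadjusted p under 0.05, all of them higher in KO, beside 8.02% of all genes in either direction. The mitosis genes had a median log2 fold change of 1.19 beside -0.0027 over all genes, and 20 of 20 were positive. Both KO libraries lay above both WT libraries in 18 of the 43 genes (41.9%), 12 of them mitosis genes, beside 19% of all genes. E2f2 had the lowest p, with 53.3 and 51.6 CPM in KO and 29.3 and 23.8 CPM in WT non-Treg libraries (log2 fold change 0.98, SE 0.19, FDR 0.10), and DESeq2 called it as the only gene of the set. Bub1b, a spindle checkpoint gene, had 6.12 and 4.87 against 1.74 and 2.89 CPM (log2 fold change 1.26, SE 0.35, FDR 0.27). Cenpe had 10.3 and 6.98 against 3.89 and 3.20 CPM (log2 fold change 1.25, SE 0.37, FDR 0.33). Mki67 had 85.8 and 43.9 against 25.5 and 12.7 CPM, apart between the groups (log2 fold change 1.74, SE 0.61, FDR 0.44).

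The genotype comparison in non-Tregs had no call among the 43 genes without WT replicate 1 either, where E2f2 had a log2 fold change of 1.15 (FDR 0.080). The activated T cell markers were higher with it as well, 10 of 10 with a positive log2 fold change and 0 called, with a summed level of 730 and 587 CPM in WT and 1003 and 802 CPM in KO non-Treg libraries. The Treg markers were higher too, 7 of 7 with a positive log2 fold change (median 0.88), 4 at an unadjusted p under 0.05 and 0 called, with a summed level of 341 and 220 CPM in WT and 457 and 479 CPM in KO non-Treg libraries. The part of these lists in the values of the mitosis genes was not tested. The G1 control and replication genes had medians of 0.09 and 0.08. Ccnd2 (1167 and 907 against 1074 and 1000 CPM) had a log2 fold change of -0.00 with a 95% interval of -0.32 to 0.31, and Cdkn1b (411 and 417 against 406 and 374 CPM) one of 0.09 with an interval of -0.13 to 0.31. Ccne2 (cyclin E2), with 12.2 and 7.25 against 8.12 and 8.67 CPM, overlapped between the genotypes.

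Whether the difference between Treg and non-Treg cells depends on the genotype was tested as the KO effect in Treg minus that in non-Treg cells, which uses 4 groups that are paired within mice. With no block 0 of the 43 genes were called, as were 0% of all genes, and 2 had an unadjusted p under 0.05 (E2f2 and Cenpe, both negative), beside 4.97% of all genes. DESeq2 called E2f2. Mki67 had a difference of -1.77 (SE 0.86, FDR 0.9999), E2f2 of -1.26 (SE 0.27, FDR 0.48), Cenpe of -1.42 (SE 0.53, FDR 0.90) and Ccnb2 of -1.58 (SE 0.75, FDR 0.9999). With the mouse as a block 2 of the 43 genes were called, beside 1.08% of all genes: Mki67, with a difference of -1.80 (SE 0.25, FDR 0.0075), and E2f2, with -1.27 (SE 0.20, FDR 0.014).

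The ratios within mice show this. E2f2 was higher in Treg than in non-Treg cells in WT mice, by 0.98 and 0.82 on the log2 scale, and lower in KO mice, by 0.18 and 0.53. Mki67 was higher by 0.87 and 0.21 in WT mice and lower by 0.91 and 1.51 in KO mice. In 7 of the 43 genes (16.3%) both WT mice were higher and both KO mice lower in Treg cells, as in 4.35% of all genes: Mki67, Ccnb2, Cenpe, Cenpf, Tpx2, Tyms and E2f2. The count takes any difference from 0, and in Tpx2 (0.092 and 0.0018 in WT) and Tyms (-0.031 and -0.0077 in KO) the ratios of a genotype were close to 0. The Treg markers had 7 of 7 negative values in the difference of KO effects (median -1.33, 0 called), and their part in it was not tested. The opposite pattern of the genes, lower in both WT and higher in both KO mice, was in 0 of the 43, as in 3.75% of all genes. Tk1 was higher in Treg cells in all 4 mice (by 2.31 and 0.68 in WT, 1.01 and 1.04 in KO) and Cdt1 lower in all 4 (by 0.56 and 0.83 in WT, 0.49 and 0.43 in KO).

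**Figure D5:**
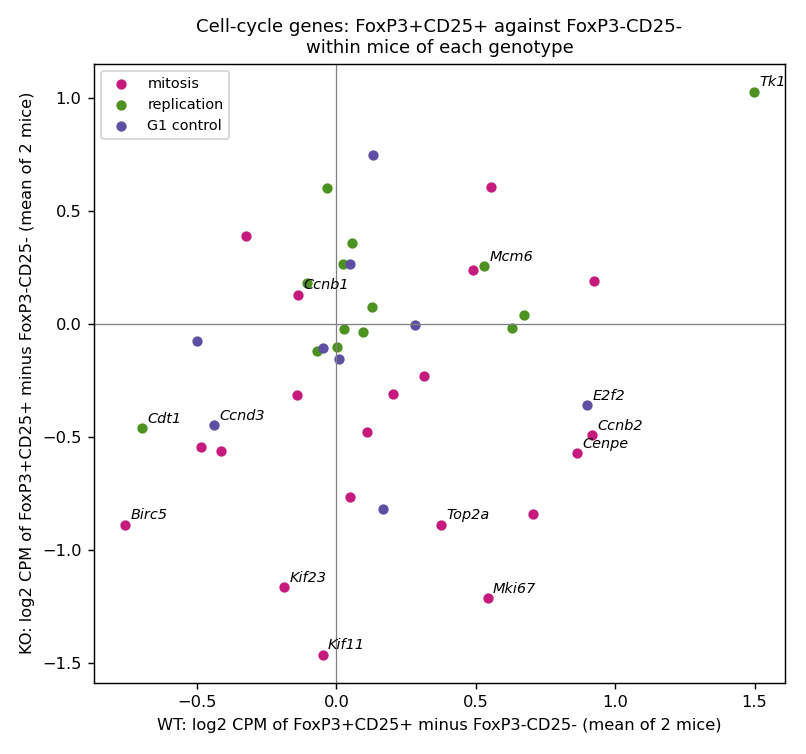
Log2 CPM of FoxP3+CD25+ minus FoxP3-CD25- cells, averaged over the 2 mice of a genotype, for WT (horizontal axis) and KO (vertical axis), 1 point per gene and coloured by role. The genotypes share no library. Tk1 and Mcm6 lie above 0 in both, Cdt1 and Ccnd3 below 0 in both, and Mki67, E2f2, Ccnb2 and Cenpe lie above 0 in WT and below 0 in KO.

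Replicate 1 was above replicate 2 in all 5 groups for 13 of the 43 genes (30.2%), 8 of them mitosis genes, beside 9.996% of all genes, and the reverse held for 2 of the 43. In Mki67 it held in each group, from 25.5 and 12.7 CPM in WT non-Treg to 45.5 and 15.2 CPM in KO Treg libraries. The number is shared by mice of different genotypes, and the labels give it no further meaning. Across the 10 libraries, the genes most like Mki67 in log2 CPM were Top2a (Pearson r = 0.977), Cenpf (0.927), Ccnb2 (0.916), Kif11 (0.910) and Tpx2 (0.903), while Mcm7 (-0.635), Ccne1 (-0.482) and Cdt1 (-0.307) ran against it. These r describe 10 libraries that share mice and groups and carry no test.

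Other genes of the cell cycle that are not among the 43 were counted from 3 further lists. In WT Treg against WT non-Treg cells, 4 of 35 tested G1 and checkpoint genes rose and 1 fell: Cdk6, a partner of the D-type cyclins (log2 fold change 1.52, SE 0.23, FDR 0.0014), Wee1 (1.66), Rbl2 (0.54) and Tfdp2 (0.52) were higher and the inhibitor Cdkn2d was lower (-0.91). Of 31 mitosis and 33 replication genes 1 each rose, Melk (2.48, SE 0.47, FDR 0.0055) and the chromatin assembly gene Chaf1a (1.88). In KO Treg against KO non-Treg cells 2 of the 31 mitosis genes, Kif22 (-1.16) and Prc1 (-0.98), and 2 of the 35 G1 and checkpoint genes, the phosphatase gene Cdc25b (-1.07) and Cdkn2d (-0.68), fell, and 0 genes of the 3 lists rose. The shares of all genes called in these comparisons were 10.9% in WT and 6.34% in KO. In KO FoxP3+CD25- cells Cdk6 (-1.48), E2f3 (-1.24) and the mitosis gene Melk (-2.42) fell and Tob1 (0.81) rose against KO Treg, where 7.02% of all genes were called. Against KO non-Treg 28 of the 31 other mitosis genes were negative, with a median of -1.15 and 0 called, and E2f8, an E2F repressor, was called lower, with 0 counts in both KO FoxP3+CD25- libraries and 15 and 10 counts in KO non-Treg, so no fold change is given (1.67% of all genes). Between KO and WT non-Treg cells 29 of these 31 genes were positive, with a median of 0.92 and 0 called.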

How the data were processed

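RNA was measured by RNA-seq in 10 libraries of spleen CD4+ T cells, 2 in each of 5 sorted groups. Reads of 50 bases had been aligned to mm10 by the authors using HISAT2 2.1.0, and HTSeq (0.11.1 in the submitters' processing notes) was used for counting. The deposited files give raw counts for each gene symbol, with no scaling. The annotation release and strand setting are not given in the sources used here. HTSeq's tallies of unassigned reads were kept out, and 26.0% to 28.5% of a library's reads fell on genes.

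From the counts, all 10 libraries were fitted in 1 edgeR model (version 4.0.16, with limma 3.58.1, in R 4.3.3) with a mean per group: filterByExpr with a minimum count of 10, TMM scaling, glmQLFit, two-sided glmQLFTest and Benjamini-Hochberg adjustment over 13796 genes, called at FDR 0.05. The standard error (SE) of a log2 fold change was taken from the F statistic, and intervals from the same test at 95%. CPM are TMM-scaled, and log2 CPM use a prior count of 2. Alternatives were RLE factors, no filter, DESeq2 (version 1.42.0), the compared groups alone, the replicate number or the mouse as a block, each library left out and WT replicate 1 left out. The mouse block combined with leaving out each mouse was added after the data were seen. The edgeR fit with no block was tested on simulated counts, with changes placed in WT Treg alone. That simulation held no deviation shared within mice, so it does not cover the blocked fits.

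Same-numbered libraries deviated together within a genotype (r = 0.303 in WT, 0.421 to 0.445 in KO over 13796 genes), where they were read as 1 mouse, and less across genotypes (-0.011 to 0.114). The mouse was therefore the block of the blocked fits, which have 3 residual degrees of freedom. The main fit had no block and leaves the pairing within mice aside, with 5 residual degrees of freedom. Over the 43 genes alone, same-numbered libraries deviated together as much across genotypes (r = 0.330 to 0.546) as within them (0.324 to 0.553).

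The 43 genes, the other lists and the tests were chosen with earlier results of these data known. Named are, per comparison, each gene called at FDR 0.05 and Mki67, with no call the 3 genes of lowest p, and for the block the genes it calls. Genes shown only for their level or for the block were named after their values were seen. Positions and exon lengths are of GENCODE M21 (GRCm38), promoters of RefSeq.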

Additional observations from a re-analysis of the deposited data

Results flagged for a closer look

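The difference between Treg and non-Treg cells itself differed between the genotypes in 2 of the 43 genes, by the interaction test with the mouse as a block. Of all genes 1.08% were called by it. The KO effect in Treg minus that in non-Treg cells was -1.80 (SE 0.25, FDR 0.0075) for Mki67 and -1.27 (SE 0.20, FDR 0.014) for E2f2 on the log2 scale. Both had a positive Treg to non-Treg ratio in 2 of 2 WT mice and a negative one in 2 of 2 KO mice. Mean Mki67 was 30.3 CPM (SD 21.4) in KO and 30.8 CPM (SD 22.7) in WT Treg. In non-Treg cells it was 64.9 CPM (SD 29.7) in KO and 19.1 CPM (SD 9.06) in WT. Mean E2f2 was 41.2 CPM (SD 7.92) in KO and 50.2 CPM (SD 11.2) in WT Treg. In non-Treg cells it was 52.5 CPM (SD 1.14) in KO and 26.6 CPM (SD 3.88) in WT. With no block the FDR was 0.9999 for Mki67 and 0.48 for E2f2. In the blocked fit without WT replicate 1, whose Xist counts set it apart, the differences were -1.38 (FDR 0.0011) and -1.19 (FDR 2.7e-04), with a spread that then comes from the KO mice alone. Without KO replicate 1 they were -2.10 (FDR 0.25) and -1.44 (FDR 0.25), and without KO replicate 2 they were -1.50 (FDR 0.28) and -1.10 (FDR 0.49). The activated T cell markers had summed levels of 1003 and 802 CPM in KO non-Treg and 730 and 587 CPM in WT non-Treg libraries, and their part in these differences was not tested.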

How the results depend on the processing

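Counts below are of the 43 genes called. WT Treg against WT non-Treg (5) had 3 with the compared groups alone, 7 with the mouse block, 1 without both libraries of WT replicate 1 and 1 to 15 when libraries or mice were left out (the 15 in a blocked fit that called 31.3% of all genes). The median log2 fold change then ran from -0.070 to 0.33 and that of Mki67 from -0.39 to 1.28. KO Treg against KO non-Treg (0) had 1 with no filter and with the compared groups alone, 3 with the number block, 6 with the mouse block and 0 to 1 when libraries or mice were left out. KO FoxP3+CD25- against KO non-Treg (1) had 7 with no filter and 3 with DESeq2 and with the compared groups alone. There were 8 with the number block and 11 with the mouse block. Against KO Treg (3) there were 5 with no filter, 10 with the number block and 13 with the mouse block. Its medians ran from -0.77 to -0.070 (-0.14 with the mouse block and no KO replicate 1). In the left-out fits of these KO comparisons fewer of all genes were called than in the main fit. KO against WT non-Treg (0) had 1 with no filter, DESeq2 and the compared groups alone and 2 with the number block. Of all genes 0.145% were called there in the main fit and 0.322% with no filter. It was 0.544% with the compared groups alone and 0.783% with the number block, and DESeq2 called 104 genes. The difference of KO effects (0) had 1 with DESeq2 and the number block, 2 with the mouse block and 0 to 11 in the left-out fits (the 11 where 13.8% of all genes were called). Mki67 between KO and WT Treg turned from -0.03 to 1.02 without both libraries of WT replicate 1, and ran from -1.01 to 1.02 when 1 library was left out. For KO FoxP3+CD25- against KO non-Treg the share of all genes was 1.67% in the main fit and 1.45% with no filter. It was 2.65% with DESeq2, 1.80% with the compared groups alone, 2.92% with the number block and 5.7% with the mouse block. Against KO Treg it was 7.02% in the main fit, 3.94% with no filter, 10.3% with the number block and 15.1% with the mouse block. For the difference of KO effects it was 0.0725% with the number block and 1.08% with the mouse block. The cause of these changes was not tested. Where 1 library or mouse of a group was left, it was assumed to vary like the other groups (in the blocked fits, like the mice of the other genotype). The replicate numbers of different genotypes pair no mice, so the number block is a hint from the data only.

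With 2 mice per genotype, single genes of under about 10 counts in a library, such as Bub1, Ccnb1 and Cdk1, have wide intervals. RLE factors and DESeq2 dropped Ccnd3 in WT Treg against WT non-Treg.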
